A study of Gallus gallus with 8 samples.

Results

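The mitochondrial ribosome and the protein import machinery of the mitochondrion were followed through lens cell differentiation at embryonic day 13 (E13) in the chicken. Members were matched by name, in a set chosen with earlier results of these data known. The set holds every locus of the gene-level table whose symbol belongs to the mitochondrial ribosomal proteins (MRPL and MRPS) or the mitochondrial translation factors. It also holds the translocases of the outer and inner membrane (TOMM and TIMM) and the import motor protein PAM16. Further members are the outer membrane assembly proteins SAMM50 and MTX2, the mitochondrial proteases AFG3L2, YME1L1 and LONP1, and the unfoldase CLPX. The processing peptidase subunits PMPCA and PMPCB and the prohibitins complete the set. This rule found 90 of 16906 loci with 89 different symbols, since MRPS16 is listed on chromosome 21 and again on an unplaced contig. Untreated lenses were microdissected into the central epithelium (EC), the equatorial epithelium (EQ), where differentiation starts, the cortical fibers (FP) and the central fibers (FC). The 8 mRNA libraries, 2 per region, were made from pools of 100 lenses, and the same lenses can stand behind libraries of several regions. The deposited table gives for each locus and region 1 pooled FPKM (fragments per kilobase of exon, set relative to all fragments mapped), with the 95% interval that cuffdiff computed. Without a value per library there is no standard deviation, no n and no test between regions, and without read counts the depth behind a value is unknown. In pooled tissue, fewer cells of a type and less RNA per cell cannot be told apart.

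Mitochondria keep a small genome of their own, and the mitochondrial ribosome translates the few membrane subunits of the respiratory chain that it encodes. All proteins of that ribosome, and nearly all other mitochondrial proteins, are encoded in the nucleus, made in the cytosol and imported: receptors and the pore of the outer membrane (TOMM) take up the precursor, the translocases of the inner membrane (TIMM) pass it on with the help of an ATP-driven motor, and the processing peptidase PMPCA and PMPCB cuts off the targeting signal. Proteases of the matrix and inner membrane then remove misfolded proteins or mature selected ones. In the lens these organelles are present in the epithelium and are removed from fiber cells as the transparent core forms.

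Fibers could be told from epithelium by the fiber markers and by some of the 4 epithelial markers. The 5 lens fiber markers found of 6 listed, among them BFSP1, CP49 and HSF4, summed to an FPKM of 335 in EC and 1114 in EQ, then 46716 in FP and 75421 in FC. The epithelial transcription factor transcript PAX-6 was listed at 311 in EC and 208 in EQ, and among fibers 57.0 in FP and 57.9 in FC, whereas the epithelial factor FOXE3 stayed under 1 FPKM in every region. Of other cell types, the hemoglobin transcript HBAA was at 564 in EC and 94.1 in EQ, then 138 in FP and 204 in FC. Of 6 red blood cell markers listed, 3 loci were found, and the other 2, both named HBZ, were at or near 0. The hemoglobin genes HBB and HBAD were not in that list. The 5 pigment cell markers reached at most 3.29, the endothelial ones at most 1.43, and among 3 immune cell markers CD74 alone passed 1, with at most 24.8 in EQ. The HBAA value was highest in EC. There, 52 of the 90 members had their lowest value, as did 4083 of 11337 loci with a mean FPKM of 1 or more. The part of red blood cell RNA in the members' levels was not tested.

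Transcripts of the ribosome and import machinery were found in epithelium and fibers alike. An FPKM above 0 in all 4 regions was listed for 89 of 90 members. Most loci of the table were above 0 as well, from 15022 of 16906 in FP to 15794 in EC. At 5 members the interval reached 0 in at least 1 region. The summed FPKM of the members was 2632 in EC and 3330 in EQ, and among fibers 3682 in FP and 4345 in FC, and their median was 20.8 in EC and 27.2 in EQ, then 29.0 in FP and 31.7 in FC. Averaged over the regions, the median member had 28.4 FPKM and the median of all loci 3.68. FC held the highest of the 4 values at 48 members (53.3%, where 24.0% of all loci were highest in FC), EQ at 25 (27.8%, against 31.2% of all loci), FP at 10 (11.1%, against 17.3%) and EC at 7 (7.78%, against 27.4%). EC held the lowest at 52 members, FP at 27, EQ at 6 and FC at 5. Of 11337 loci with a mean FPKM of 1 or more, EC held the lowest at 4083, FP at 3614, EQ at 1467 and FC at 2173.

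MRPL28, a large subunit protein, was the exception in level. It was listed at 0.0297 FPKM in EC, at 0 in EQ and FP and at 0.0972 in FC, and its ratios at these low values (it is counted among the members with a fiber over epithelium and an FC over EC ratio of 2 or more) are not read as a difference. At the other end, PHB2, a subunit of the ring-shaped prohibitin complex of the inner membrane, had the highest level of all members, with an FPKM of 175 in EC and 249 in EQ, and among fibers 239 in FP and 382 in FC. TIMM13, a small chaperone that guides membrane proteins through the intermembrane space, followed with 153 in EC and 161 in EQ, then 158 in FP and 201 in FC. The large subunit protein MRPL9 had 114 in EC and 136 in EQ, and among fibers 175 in FP and 193 in FC. At both TIMM13 and MRPL9 the listed FPKM exceeded its interval in all 4 regions, which was the case in at least 1 region at 584 loci of the table, so the interval does not describe the error of these values.

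**Figure D1:**
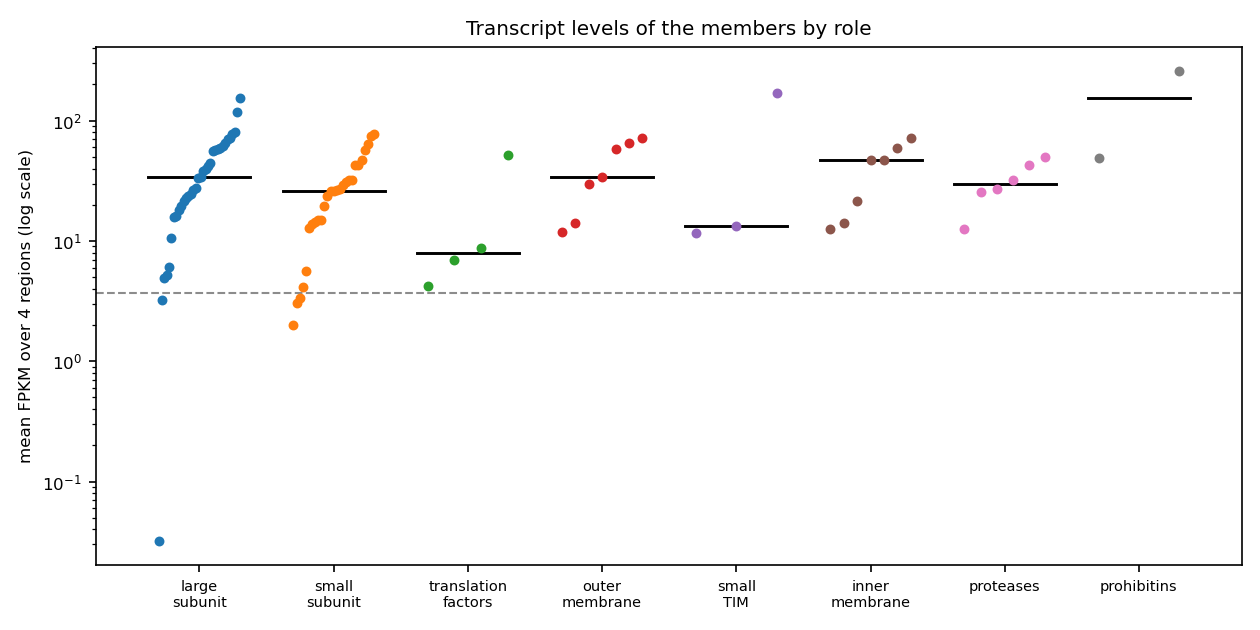
Mean FPKM over the 4 regions (log scale) of each of the 90 members, in the 8 role groups; points are loci, short lines the group medians, and the dashed line the median of all loci, 3.68 FPKM. MRPL28 in the large subunit stands far below the others, and the highest point is PHB2 among the prohibitins.

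Levels per length also differed between the role groups. The median of the mean FPKM was 34.0 for 34 loci of the large ribosomal subunit, 26.0 for 27 loci of the small subunit and 7.90 for the 4 translation factors. It was 34.2 for the 7 outer membrane loci, 13.3 for the 3 small TIM chaperones and 46.8 for the 7 inner membrane loci. The protease group had 29.5 over 6 loci, and the 2 prohibitins had 155. Within the ribosome the spread was wide. In the small subunit, MRPS17 was the highest, with an FPKM of 72.9 in EC and 114 in EQ, then 62.7 in FP and 63.2 in FC. MRPS35 was the lowest, with 1.94 in EC and 2.52 in EQ, and among fibers 1.51 in FP and 1.99 in FC. Both belong to the same particle, and both were highest in EQ.

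The fibers were then compared with the epithelium by the ratio of the summed FPKM of FP and FC over that of EC and EQ, the measure of preference used in the study's methods, with a limit of 2 in either direction. A ratio of 2 or more was found at 12 members (13.3%), 11 of them apart from MRPL28, where 15.5% of 15418 loci with values had one. A ratio of 0.5 or less was found at 2 members (2.22%), where 22.3% of all loci had one. The ratio was above 1 at 60 of 90 members (66.7%) and at 43.8% of all loci. The median log2 ratio was 0.22 over the members, with quartiles of -0.19 and 0.69, and -0.16 over all loci. The share of members at a ratio of 2 or more was thus near that of all loci, and the share at 0.5 or less was smaller. No test of the difference was made.

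These counts depend on how the regions are scaled to each other. With median scaling, 15 members had a ratio of 2 or more and 1 had a ratio of 0.5 or less (all loci 18.1% and 18.6%). With upper quartile scaling the counts were 11 and 3 (all loci 14.7% and 23.9%). Setting each region to a total of 1000000 multiplied FP by 1.74 and FC by 2.28 relative to EC. With these equal totals, 62 members had a ratio of 2 or more and 0 a ratio of 0.5 or less. Of all loci, 43.7% then had the higher ratio and 6.14% the lower one. The same scaling moved the median log2 ratio of all loci to 0.83 and that of the members to 1.23. Relative to all loci, the members' median was higher by 0.38 as deposited and by 0.40 with this scaling. A factor per region moves both medians nearly alike, so this difference could hardly change.

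**Figure D2:**
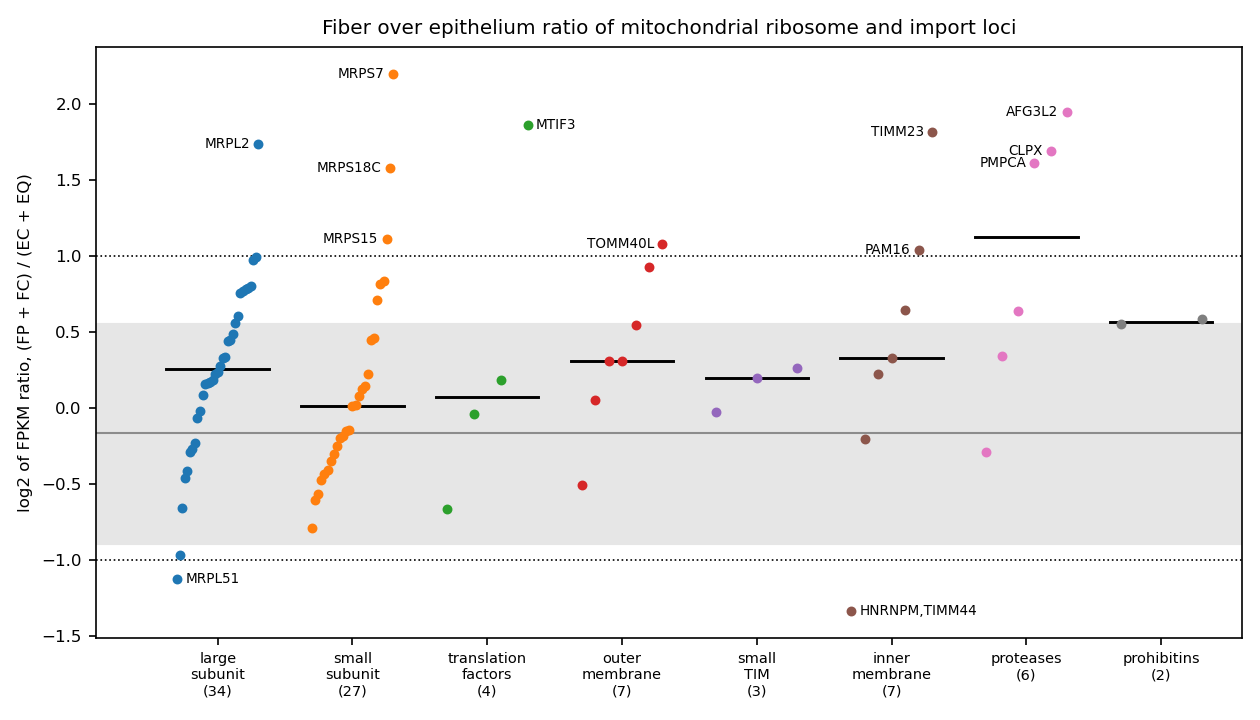
Log2 of the FPKM ratio (FP + FC) / (EC + EQ) for 89 members (MRPL28 left out) in the 8 role groups, with the number of loci in brackets; points are loci, short lines group medians (the large subunit's includes MRPL28), dotted lines a ratio of 2 and of 0.5, and the grey line and band the median and quartiles of all loci. Named points lie past a ratio of 2 or 0.5: 11 above and 2 below.

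The small ribosomal subunit was grouped by the MRPS symbols alone, whatever the place of each protein, with MRPS30 and MRPS36 included. In this group the ratio was above 1 at 14 of 27 loci as deposited. The median log2 ratio was 0.01. The ratio was above 1 at 12 loci (median -0.04) with upper quartile scaling, at 15 (0.16) with median scaling and at all 27 (1.00) with equal totals. MRPS7, a protein of the small subunit's head that is among the early ones to bind the ribosomal RNA in bacteria, had the highest ratio of all members, 4.59. It lies on chromosome 18 from 10991674 to 11001029 as the table lists it on Galgal4. Its FPKM (95% interval) was 13.2 (2.63 to 23.8) in EC and 17.7 (1.59 to 33.7) in EQ, then 78.1 (2.59 to 171) in FP, with 63.6 (2.01 to 230.0) in FC. Both fiber values were above both epithelial ones, but the intervals of the fibers were wide and overlapped those of the epithelium.

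MRPS18C, on chromosome 4 from 45865767 to 45890341, had a ratio of 2.99, with an FPKM of 6.74 (0 to 17.9) in EC and 8.17 (0 to 29.0) in EQ, and among fibers 27.6 (0 to 69.1) in FP, with 17.0 (0 to 52.8) in FC. Its interval reached 0 in every region, so its level was not set apart from 0. MRPS18A, its paralog, had a ratio of 0.752, with 12.9 in EC and 20.0 in EQ, then 11.5 in FP and 13.2 in FC. MRPS15, on chromosome 23 from 3965823 to 3977491, had a ratio of 2.16, with 32.1 (11.7 to 52.3) in EC and 49.5 (19.3 to 79.3) in EQ, then 87.1 (25.4 to 149) in FP, with 89.1 (28.6 to 149) in FC. Its value was higher at every step from EC to FC. MRPS36, which in mammals is known as a subunit of the oxoglutarate dehydrogenase complex, stood just below the limit with a ratio of 1.79 and an FPKM of 17.3 in EC and 21.5 in EQ, and among fibers 37.6 in FP and 31.9 in FC.

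Other small subunit members were higher in EQ than in all other regions, as was the case for 12 of the 27 loci (44.4%), against 37.3% of loci with a mean FPKM of 1 or more. MRPS6 had 42.5 in EC and 66.3 in EQ, then 32.3 in FP and 46.0 in FC, and MRPS17, given above, had the same order of EQ over EC and FP. MRPS30, which sits in the large subunit in mammalian structures despite its name, had the lowest ratio of this group, 0.578, with 3.70 in EC and 3.99 in EQ, and among fibers 2.32 in FP and 2.12 in FC. MRPS12 was nearly flat, with 22.6 in EC and 24.1 in EQ, then 24.0 in FP and 23.1 in FC. The 2 loci named MRPS16 differed: that on chromosome 21 had 25.4 in EC and 24.4 in EQ, and among fibers 20.7 in FP and 33.5 in FC, and that on the unplaced contig 5.09 in EC and 2.94 in EQ, then 1.27 in FP and 4.00 in FC. Whether reads were shared between these loci was not tested, and the values of both are uncertain.

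In the large ribosomal subunit, the ratio was above 1 at 24 of 34 loci and the median log2 ratio was 0.26. MRPL2, which lies close to the peptidyl transferase center of the ribosome, had a ratio of 3.33. It lies on chromosome 3 from 4287639 to 4290846 and had an FPKM of 16.9 (6.93 to 26.8) in EC and 23.8 (9.68 to 38) in EQ, and among fibers 60.7 (21.9 to 99) in FP, with 75.1 (24.2 to 126) in FC. Its level was higher at every step, and the intervals overlapped between all regions.

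MRPL39, on chromosome 1 from 101827879 to 101837162, was 1 of 2 members with separate 95% intervals in any 2 regions. Its FPKM was 10.4 (4.21 to 16.6) in EC and 34.6 (14.4 to 54.7) in EQ, then 43.6 (17.7 to 69.3) in FP, with 45.9 (19.4 to 72.4) in FC, so that the intervals of FP and of FC lay above that of EC. Most of its difference fell between EQ and EC, with a ratio of 3.31, the highest of the members in that step. Because EQ counts as epithelium, its fiber over epithelium ratio was 1.99 and stood just under the limit. MRPL47, at 1.96, stood next to it, with 14.7 in EC and 18.2 in EQ, and among fibers 33.0 in FP and 31.6 in FC.

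MRPL51, on chromosome 1 from 76399983 to 76401537, was the ribosomal protein with the lowest ratio, 0.457. Its FPKM was 14.5 (6.26 to 22.7) in EC and 14.6 (6.26 to 22.9) in EQ, then 6.81 (2.35 to 11.2) in FP, with 6.49 (2.35 to 10.5) in FC. The levels were close within epithelium and within fibers and were lower in fibers, with intervals that overlapped, and with median scaling the ratio was above 0.5. MRPL15 stood just above the limit, with a ratio of 0.511 and 5.00 in EC and 7.92 in EQ, and among fibers 3.45 in FP and 3.15 in FC.

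**Figure D3:**
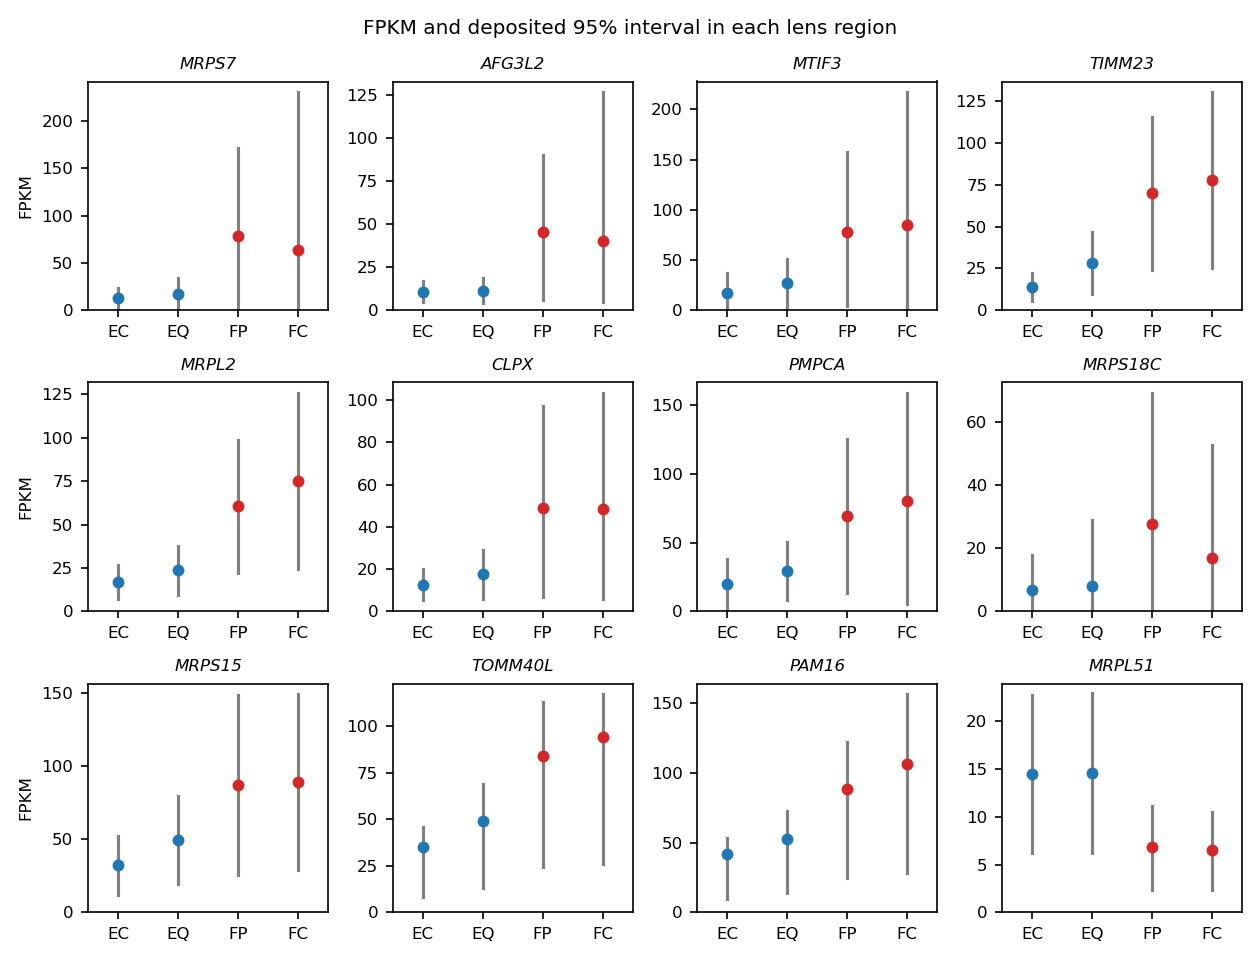
FPKM (points) with the deposited 95% interval (lines) in EC and EQ (blue) and in FP and FC (red) for the 11 members with a fiber over epithelium ratio of 2 or more, without MRPL28, and for MRPL51; each panel has its own axis from 0. In the first 11 panels both fiber points lie above both epithelial points, for MRPL51 they lie under them, and intervals that do not overlap occur at TIMM23 alone (FP against EC and FC against EC).

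The ratios of the mitochondrial translation factors differed within their pairs, but the intervals of each factor overlapped between all regions. The initiation factor MTIF3, on chromosome 1 from 175510864 to 175518424, had a ratio of 3.64, with an FPKM of 17.7 (0.155 to 37.1) in EC and 27.1 (3.52 to 50.7) in EQ, and among fibers 77.9 (3.95 to 157) in FP, with 85.0 (2.44 to 217) in FC. MTIF2, the other initiation factor, which brings the initiator tRNA to the ribosome, had 6.71 in EC and 7.48 in EQ, then 6.44 in FP and 7.36 in FC and a ratio of 0.973. The listed values of MTIF3 were higher in fibers than in epithelium. Those of MTIF2 were about equally low in all regions, and with intervals that reached 0 in each region they were not set apart from 0. Of the 2 elongation factor G paralogs, GFM1, which moves the ribosome along the mRNA, had 7.07 in EC and 9.43 in EQ, and among fibers 8.49 in FP and 10.3 in FC. GFM2, which takes part in ribosome recycling in mammals, had 4.19 in EC and 6.24 in EQ, then 2.95 in FP and 3.61 in FC. Their ratios were 1.14 for GFM1 and 0.630 for GFM2.

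At the outer membrane, 6 of 7 loci had a ratio above 1 and the median log2 ratio was 0.31. TOMM40L, a paralog of the import pore TOMM40 listed on an unplaced scaffold, had a ratio of 2.11, with 34.9 (8.29 to 45.9) in EC and 49.1 (13.3 to 69.0) in EQ, and among fibers 83.7 (24.6 to 113) in FP, with 93.9 (25.8 to 117) in FC. MTX2, a metaxin of the complex that sorts and assembles outer membrane proteins, had 26.5 in EC and 53.2 in EQ, then 75.1 in FP and 76.1 in FC, and its ratio of 1.90 was just under the limit. SAMM50, the central barrel protein of that complex, had 8.61 in EC and 14.3 in EQ, and among fibers 17.7 in FP and 15.8 in FC. All 3 were lowest in EC.

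Of the import receptors, TOMM70A, a receptor for carrier proteins among others, had 23.6 (8.03 to 39.1) in EC and 56.6 (11.8 to 102) in EQ, then 27.5 (3.14 to 58.5) in FP, with 29.0 (4.86 to 61.8) in FC, with a ratio of 0.704, the lowest of this group. TOMM20, the receptor for precursors with a cleavable targeting signal, had a ratio of 1.04 and was highest in EQ as well. The merged locus of TOMM22, a receptor that also organizes the pore, and CBY1 had 53.5 in EC and 73.7 in EQ, and among fibers 68.9 in FP and 88.6 in FC. TOMM34, a cytosolic co-chaperone, was lowest in level, with 10.9 in EC and 10.3 in EQ, then 12.3 in FP and 14 in FC. EQ thus held the highest value at TOMM70A and TOMM20 and not at the other 5 loci of the outer membrane, though with median scaling TOMM20 is higher in FP.

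In the intermembrane space and at the inner membrane, the highest ratios were those of TIMM23 and PAM16, both of the presequence route. TIMM23, the channel through which precursors with a targeting signal cross the inner membrane, lies on chromosome 6 from 2260561 to 2277263 and had a ratio of 3.52. Its FPKM was 13.7 (5.32 to 22) in EC and 28.3 (9.58 to 46.6) in EQ, and among fibers 70.0 (24.2 to 116) in FP, with 77.9 (25.4 to 130.2) in FC. It was the other member with separate intervals: those of FP and of FC lay above that of EC. The 2 members with separate intervals between FP and EC, and again between FC and EC, were 2.22% of the members, where 4.42% of all loci had them between FP and EC and 4.09% between FC and EC. TIMM23 was also the only member with a ratio of 2 or more both for EQ over EC (2.06) and for FP over EQ (2.48).

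PAM16, which regulates the import motor at that channel, lies on chromosome 14 from 12692323 to 12694121. It had 41.8 (9.68 to 52.9) in EC and 52.5 (13.6 to 72.3) in EQ, then 88.1 (24.5 to 122) in FP, with 106 (28.1 to 157) in FC, a ratio of 2.06 that was under 2 with upper quartile scaling. TIMM17A, which forms the channel complex together with TIMM23, had 15.9 in EC and 17.8 in EQ, and among fibers 26.2 in FP and 26.5 in FC and a ratio of 1.56. TIMM50, the receptor of that complex on an unplaced scaffold, had 43.1 in EC and 43.3 in EQ, then 39.3 in FP and 61.5 in FC, and TIMM21, which links the complex to the respiratory chain, had 15.0 in EC and 14.9 in EQ, and among fibers 12.7 in FP and 13.2 in FC. Without the merged locus of TIMM44, the parts of this translocase thus had ratios that ranged between 0.869 at TIMM21 and 3.52 at TIMM23.

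The merged locus of TIMM44, which tethers the motor to the channel, and HNRNPM, a nuclear splicing regulator, had the lowest ratio of all members, 0.396. It lies on chromosome 28 from 487009 to 534490, with 75.7 (7.57 to 157) in EC and 93.0 (28.9 to 157) in EQ, then 33.0 (10.4 to 55.6) in FP, with 33.9 (8.49 to 59.3) in FC. The reads of these genes cannot be told apart, so the value is not that of TIMM44 alone. Of the carrier route, TIMM22, the translocase that inserts carrier proteins, had 10.4 in EC and 12 in EQ, and among fibers 13.7 in FP and 14.5 in FC. Of its small chaperones, TIMM8A had 11.5 in EC and 12.8 in EQ, then 14.3 in FP and 14.8 in FC, with a ratio of 1.2. TIMM10 had 13.0 in EC and 10.5 in EQ, and among fibers 7.70 in FP and 15.4 in FC, with a ratio of 0.981, and its lowest value in FP lay beside its highest in FC.

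The protease group, in which the unfoldase CLPX and the peptidase subunit PMPCA are counted, had the highest median log2 ratio of the 8 groups, 1.12 over 6 loci. It holds only loci that the name rule covers, so it does not stand for all mitochondrial proteases. Outside it, ratios were 4.68 at SPG7, 1.38 at HTRA2, 0.983 at IMMP1L and 0.770 at MIPEP. They were 0.688 at PITRM1, 0.486 at PARL and 0.344 at OMA1. Within the group, a ratio of 2 or more was found at 3 of the 6 loci (50%, against 15.5% of all loci): AFG3L2, CLPX and PMPCA. At each of these 3 the intervals overlapped between all regions. AFG3L2 is an ATP-dependent protease of the inner membrane that in mammals forms the m-AAA protease with its paralog SPG7. It lies on chromosome 2 from 97095351 to 97119049 and had a ratio of 3.85, with 10.9 (4.69 to 17.1) in EC and 11.4 (4.24 to 18.7) in EQ, then 45.6 (6.19 to 90.4) in FP, with 40.4 (4.77 to 127) in FC. The values were close within epithelium and within fibers and differed at the step to FP, with a ratio of 3.99 of FP over EQ. The intervals of AFG3L2 overlapped between all regions. SPG7, outside the member list, had a ratio of 4.68 and an FPKM of 20.9 (8.18 to 33.6) in EC and 40.4 (15.1 to 65.5) in EQ, and among fibers 136 (40.4 to 231) in FP, with 151 (43.8 to 258) in FC, with the intervals of FP and of FC above that of EC. The ribosomal protein MRPL32, which the m-AAA protease matures in yeast and mouse, had 7.59 in EC and 7.14 in EQ, then 4.34 in FP and 4.99 in FC. Its ratio of 0.633 was thus on the other side of 1.

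YME1L1, the AAA protease that faces the intermembrane space, had 21.9 in EC and 22.9 in EQ, and among fibers 30.3 in FP and 26.3 in FC and a ratio of 1.26. CLPX, the unfoldase that feeds the matrix protease CLPP, lies on chromosome 10 from 17224371 to 17244650. It had a ratio of 3.23 and an FPKM of 12.7 (5.29 to 20.0) in EC and 17.5 (5.82 to 29.2) in EQ, then 49.2 (7.05 to 97.1) in FP, with 48.3 (5.94 to 103) in FC. LONP1, the other main protease of the matrix, had 14.3 in EC and 13.2 in EQ, and among fibers 10.1 in FP and 12.4 in FC and a ratio of 0.816. CLPX was higher in both fiber regions than in both epithelial regions, whereas the LONP1 values differed by at most 1.42-fold.

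The subunits of the processing peptidase both had a ratio above 1, to unequal degrees. PMPCA, which recognizes the targeting signal, lies on chromosome 17 from 7875044 to 7889675 and had 19.8 (1.88 to 37.9) in EC and 29.1 (7.95 to 50.3) in EQ, then 69.4 (13.5 to 125) in FP, with 80.0 (5.28 to 158) in FC, a ratio of 3.06. PMPCB, the catalytic subunit on chromosome 1, had 27.4 (11.5 to 43.3) in EC and 39.5 (16.5 to 62.4) in EQ, and among fibers 45.9 (19.2 to 72.6) in FP, with 58.1 (20.9 to 95.4) in FC, a ratio of 1.56. PMPCB had the higher FPKM in EC and EQ, and PMPCA had the higher one in FP and FC, with intervals that overlapped in each region. The prohibitins had ratios close to each other, 1.46 for PHB2 and 1.5 for PHB, which had 35.4 in EC and 43.7 in EQ, then 57.9 in FP and 60.6 in FC.

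**Figure D4:**
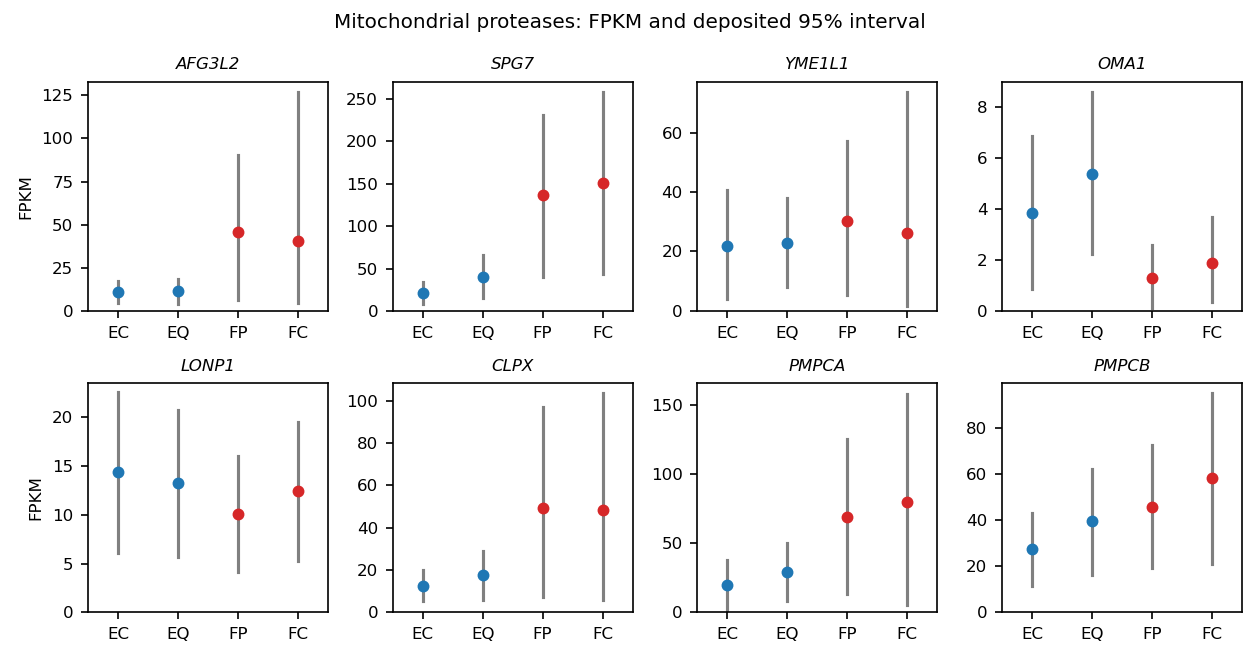
FPKM (points) with the deposited 95% interval (lines) in EC and EQ (blue) and FP and FC (red) for the 6 members of the protease group and for SPG7 and OMA1. SPG7 and OMA1 come from the list of import and protease partners, and each panel has its own axis from 0. AFG3L2, SPG7, CLPX and PMPCA are higher in FP and FC than in EC and EQ, OMA1 is lower, and YME1L1, LONP1 and PMPCB differ less.

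At the start of differentiation, most members were higher in EQ than in EC. In EQ over EC the median log2 ratio was 0.33 over the members and 0.13 over all loci, and 73 of 90 members had the higher value in EQ. With median scaling the members' value was 0.10 and that of all loci -0.10, and with upper quartile scaling 0.11 and -0.09. The 73 members were 81.1% of all, against 65.5% of 11337 loci with a mean FPKM of 1 or more. A ratio of 2 or more was found at 5 members as deposited, where 8.35% of all loci had one: MRPL39, TOMM70A, the small subunit gene MRPS14, TIMM23 and MTX2. MRPS14 had 8.95 (0 to 18.4) in EC and 19.9 (1.68 to 38.2) in EQ, and among fibers 13.8 (0 to 41.7) in FP, with 16.7 (0 to 70.6) in FC. Its interval reached 0 in EC, FP and FC, so its level there was not set apart from 0. A ratio of 0.5 or less was found at 0 members as deposited, where 12.6% of all loci had one. With median or upper quartile scaling, 3 members were past a fold of 2 in either direction. MRPL39 and TOMM70A were higher in EQ, and MRPS16 on the unplaced contig was lower. The intervals of EQ and EC did not separate at any member, where 0.976% of all loci had separate ones.

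Between EQ and FP, where fiber cells form, members past a fold of 2 were a minority and lay on both sides. The value in FP was above that in EQ at 40 members (44.4%), against 36.8% of loci with a mean FPKM of 1 or more. In FP over EQ the median log2 ratio was -0.05 over the members and -0.17 over all loci, and the members' value turned to 0.26 with median scaling, to 0.06 with upper quartile scaling and to 0.74 with equal totals. A ratio of 2 or more was found at 8 members (8.99%), where 17.1% of all loci had one. These were MRPS7, AFG3L2, MRPS18C, MTIF3, CLPX, MRPL2, TIMM23 and PMPCA. A ratio of 0.5 or less was found at 7 members (7.87%), where 22.1% of all loci had one. These were the locus of HNRNPM and TIMM44, MRPS16 on the unplaced contig, MRPL15, MRPL51, GFM2, TOMM70A and MRPS6. Ribosomal, translation factor and import genes stood on both sides. Separate intervals were found at 0 members and at 3.37% of all loci.

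Between FC and FP the differences were smaller. The median log2 ratio of FC over FP was 0.16 over the members and 0.06 over all loci (0.051 and -0.04 with upper quartile scaling), and 72 members (80.0%) were higher in FC than in FP, against 61.2% of loci with a mean FPKM of 1 or more. MRPS16 on the unplaced contig was the only member with a ratio of 2 or more, where 4.83% of all loci had one, and 0 members had a ratio of 0.5 or less, where 6.8% had one. The share of loci with separate intervals was 0.166% in this comparison, with 0 among the members.

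Across the full distance from EC to FC, 24 members had a ratio of 2 or more, where 19.2% of all loci had one, and 2 had a ratio of 0.5 or less, where 23.1% of all loci had one. The highest ratios of FC over EC were 5.67 at TIMM23, 4.81 at MTIF3, 4.8 at MRPS7, 4.44 at MRPL2 and 4.4 at MRPL39. For FP over EC, 18 members had a ratio of 2 or more, where 18.6% of all loci had one, and 3 a ratio of 0.5 or less, where 22.8% had one. For FC over EQ the counts were 9, where 16.9% of all loci had such a ratio, and 3, where 22.2% had one. Separate intervals of FC and EQ were found at 0 members and at 2.9% of all loci. TIMM23 thus had the largest difference between the ends of the path among the members, and its intervals in FC and EC did not overlap.

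**Figure D5:**
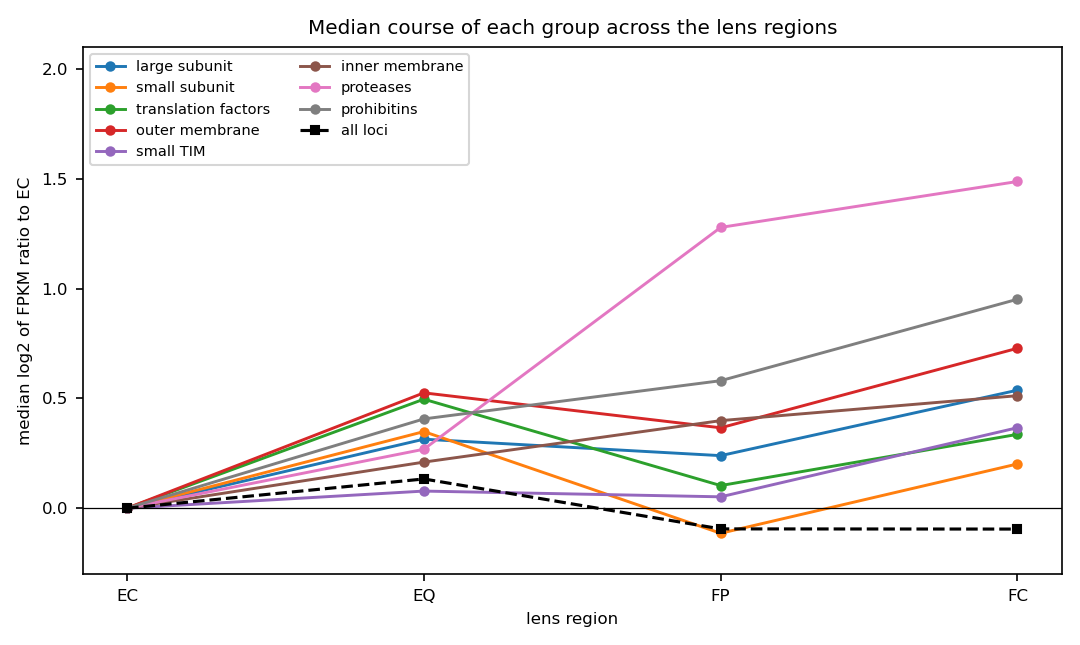
Median log2 of the FPKM ratio of EQ, FP and FC to EC for each of the 8 role groups (colored lines, circles) and for all loci above 0 in both regions (black dashed line, squares). The protease line stands highest in FP and FC, at 1.28 and 1.49, the small subunit lies at -0.11 in FP and 0.20 in FC, and all loci lie at -0.09 and -0.10.

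The shape of the course was also counted. An FPKM that was higher at every step from EC to FC was listed for 25 members (27.8%), against 14.5% of loci with a mean FPKM of 1 or more, and 0 members were lower at every step, against 7.04%. Ribosomal proteins such as MRPL14, with 41.9 in EC and 71.8 in EQ, then 94.0 in FP and 104 in FC, and MRPL18, with 46.5 in EC and 73.4 in EQ, and among fibers 84.9 in FP and 119 in FC, were among those that were higher at every step. EQ was above both EC and FP at 38 members (42.2%), against 41.5% of those loci, a share near the background. The 4 values lay within 2-fold of each other at 56 members (62.2%), against 37.4% of those loci, and within 1.5-fold at 34. These shares depend on the scaling between regions and are given as a description.

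Other genes of the same pathways were counted in lists, and single ratios of these genes with other scalings were not examined. Of 17 mitochondrial tRNA synthetases listed, 14 were found, with a median log2 ratio of fibers over epithelium of 0.04. A ratio of 2 or more was found at 2 (14.3%, against 15.5% of all loci) and one of 0.5 or less at 1 (7.14%, against 22.3%). LARS2 had a ratio of 2.56, with 6.88 in EC and 9.74 in EQ, then 21.4 in FP and 21.1 in FC, and AARS2 one of 2.1. FARS2 was on the other side, with a ratio of 0.352 and 10.9 in EC and 20.7 in EQ, and among fibers 6.42 in FP and 4.72 in FC. These enzymes charge the mitochondrial tRNAs for leucine, alanine and phenylalanine. The intervals of LARS2, of AARS2 and of FARS2 overlapped between all regions.

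Of 19 genes of mitochondrial ribosome assembly and recycling, 15 were found, with a median log2 ratio of -0.03. A ratio of 2 or more was found at 2 (13.3%, near the 15.5% of all loci) and one of 0.5 or less at 0 (against 22.3%). TFB1M, which methylates the RNA of the small subunit, had 5.49 in EC and 6.22 in EQ, then 15.8 in FP and 20.6 in FC, a ratio of 3.11. ERAL1, a GTPase that binds the same RNA during assembly, had 5.01 in EC and 6.89 in EQ, and among fibers 12.1 in FP and 13.1 in FC, a ratio of 2.11.

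Of 20 genes of the import motor, the intermembrane space relay, chaperones and peptidases, 18 were found at 19 loci, with a median log2 ratio of -0.03. A ratio of 2 or more was found at 2 loci (10.5%, against 15.5% of all loci). A ratio of 0.5 or less was also found at 2 (10.5%, against 22.3%). Besides SPG7, DNAJC15, a J-domain protein of the import motor, passed the limit, with 8.41 in EC and 11.3 in EQ, then 29.3 in FP and 30.4 in FC and a ratio of 3.02. The motor's ATPase HSPA9 had 48.3 in EC and 46.8 in EQ, and among fibers 61.9 in FP and 66.6 in FC. Below 0.5 were OMA1, a stress-activated inner membrane protease, with 3.83 in EC and 5.39 in EQ, then 1.29 in FP and 1.88 in FC and a ratio of 0.344, and the rhomboid protease PARL, with a ratio of 0.486. Among inner membrane proteases, SPG7 and AFG3L2 thus stood above 2 and OMA1 and PARL below 0.5. YME1L1, at 1.26, and IMMP1L, at 0.983, passed neither limit. The intervals of OMA1 and of PARL overlapped between epithelium and fibers. PARL stood close to the limit, and its ratio with other scalings was not examined.

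Of 12 genes of mitochondrial transcription and its regulators, 8 were found, with a median log2 ratio of -0.39. PPRC1, a coactivator of the PGC-1 family, was the only one past a ratio of 2, with 5.07 in EC and 4.49 in EQ, and among fibers 17.0 in FP and 23.1 in FC, a ratio of 4.2. TFAM, which packages mitochondrial DNA and starts its transcription, had 10.5 in EC and 8.79 in EQ, then 8.63 in FP and 8.10 in FC. PPARGC1A stayed under 1 FPKM in all regions.

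Set beside the other large protein complexes of the mitochondrion and the cytosol, the median log2 ratio of fibers over epithelium was 0.22 for the members, 0.43 for 60 loci of the nuclear-encoded respiratory chain and -0.29 for 67 loci of the cytosolic ribosome. A ratio above 1 was found at 66.7% of the members, 85.0% of the respiratory chain loci and 20.9% of the cytosolic ribosome loci. For FP over EQ the median log2 ratio was -0.05 for the members, 0.18 for the respiratory chain and -0.59 for the cytosolic ribosome. The differences between these sets were not tested.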

How the data were processed

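The authors aligned 35-base directional single-end reads with TopHat to Galgal4 (Ensembl models), used cufflinks for transcript levels and Cuffdiff 2.1.1 for comparisons. In the deposited FPKM values, given by the authors with interval bounds, cuffdiff had scaled the libraries and pooled both of a region, so a library's influence was not measured, and fold changes depend on that scaling. A further deposited table holds the authors' own fold changes, test statistics, p-values and q-values and was not used. No value column of another series was found (0).

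Members were matched by symbol (86 of 89 symbols occur as a RefSeq symbol or synonym in GRCg7b, used for names only). Members, role groups and lists were chosen with earlier results of these data known. The genes named were set by a rule: members past a ratio of 2 or 0.5 or nearest to them outside, those with separate intervals, listed at 0 or in merged loci, the highest and lowest of each role group, and paralog or partner pairs; list genes past a ratio of 2 or 0.5. Further genes, such as MRPS6, MRPS12, MRPS14, MRPS30, MRPL14, MRPL18, MRPL32, SAMM50, TIMM17A, TIMM21, TIMM50, HSPA9, TFAM and PPARGC1A, were named after their values were seen. Ratios were computed with no value added, and no p-value was computed. The values of 1 merged locus, which stays in the counts, are not reported here. Of partner genes, TIMM8B, TIMM9, TIMM17B, TOMM40, MRPS18B, MTX1, TUFM, TSFM and CLPP were not analysed here. Alternatives were a value of 1 FPKM added, a minimum mean FPKM of 1, 3 other scalings between regions, merged loci or loci outside their interval left out, a fold of 1.5, FC over EC alone and intervals 1.5-fold apart. The computation was tested on simulated data and used numpy 2.4.6, pandas 2.3.3 and matplotlib 3.10.9 under Python 3.11.15.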

Additional observations from a re-analysis of the deposited data

How the results depend on the processing

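As deposited, 12 members had a ratio of fibers over epithelium of 2 or more and 2 one of 0.5 or less, with a median log2 ratio of 0.22. Median scaling gave 1 lower member and a median of 0.37, a total of 1000000 gave 62 higher and 0 lower members (all loci 43.7% and 6.14%) and a median of 1.23, and leaving out merged loci gave 1 lower member. A fold of 1.5 gave 26 higher and 7 lower members (all loci 24.0% and 34.5%), and FC over EC alone gave 24 higher members and a median of 0.44. The median of all loci moved with the scaling. It was -0.16 as deposited, -0.02 with median scaling, 0.83 with equal totals and -0.22 with upper quartile scaling. Relative to it, the members' median was higher by 0.38, 0.39, 0.40 and 0.39 in the same order. A factor per region moves both medians nearly alike, so these differences could hardly change. With 1 FPKM added, the members' median was higher than that of all loci by 0.27. For EQ over EC, 5 members were past a fold of 2 in either direction. The count became 3 with 1 FPKM added, 3 with median and 3 with upper quartile scaling, and 18 at a fold of 1.5. With median and upper quartile scaling, MRPS16 on the unplaced contig was counted as a decrease. The median of 0.33 became 0.10 with median and 0.11 with upper quartile scaling. For FP over EQ, the 15 members in either direction became 32 with equal totals and 27 at a fold of 1.5, and the median of -0.05 became 0.26, 0.74 and 0.055 with median scaling, equal totals and upper quartile scaling. For FC over FP, the 1 member became 7 with equal totals and 8 at a fold of 1.5, and the median of 0.16 became 0.54 with equal totals and 0.051 with upper quartile scaling. Of the 2 members with separate intervals, 0 had intervals 1.5-fold apart. A further 49 counts and medians stayed within 1.5 times of the count or 0.1 of the median as deposited. With equal totals 88 members, against 60 as deposited, had a ratio above 1, so the direction of single members depends on the scaling. No paired analysis was possible because each region has 1 pooled value, and for the same reason no replicate was left out in turn. With wide intervals and unknown depth, a difference of less than several-fold could not be set apart from the error at most members.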
